A study of Capsella grandiflora x Capsella rubella and Capsella rubella and Capsella grandiflora with 8 samples.

Results

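The genes described here are the 3 homologues in *Capsella rubella* that the study pairs with Arabidopsis *AGL38*, also called *PHERES2* (*PHE2*, AT1G65300). They are Carubv10020903m.g, Carubv10001714m.g and Carubv10022335m.g, 3 of the 26521 genes in the count table. They were taken by identifier. Of the 3, the first 2 passed the filter on low counts (edgeR's filterByExpr with a count minimum of 10) and Carubv10022335m.g did not. Filtering left 21214 genes to be tested.

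RNA was sequenced from whole seeds harvested at 6 days after pollination (DAP), with 300 to 500 seeds in each replicate and 2 biological replicates per cross, which gave 8 libraries. In each cross name the mother stands before the father. The crosses were *C. rubella* × *C. grandiflora* hybrid seeds (Cr × Cg), *C. grandiflora* × *C. rubella* hybrid seeds (Cg × Cr), *C. grandiflora* seeds (Cg) and *C. rubella* seeds (Cr), and the methods name accessions Cr48.21 and Cg4a for the expression analysis. Whether the mothers of the Cg seeds were Cg4a is not given in the sources used here. The study's seed phenotyping crossed another accession, Cg88.14, with Cg4a, so Cg × Cr and Cg may not share their mother's accession. All females, those of the selfing *C. rubella* included, were emasculated and pollinated by hand, so every seed came from a controlled cross. The design asks whether seeds of each hybrid direction differ from seeds of either parental species.

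*AGL38* encodes a transcription factor of the MADS-box family, in its type I class. In Arabidopsis it is active in the endosperm. The endosperm is the tissue that nourishes the embryo. It first divides its nuclei without walls and then forms cells, a step called cellularization. In Arabidopsis *PHE2* lies close to its near relative *PHE1* (*AGL37*), a gene expressed mainly from the paternal genome and kept low by the Polycomb group complex of the seed, which contains MEA and FIS2.

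Library totals ranged from 24838286 to 34290034 counts and TMM factors from 0.955 to 1.03. The median over all tested genes of the log2 fold change lay between -0.018 and 0.03 in the 6 comparisons of crosses. TMM scaling itself tends to centre this median, so these values do not show whether most genes shared a shift. The seed label was checked against marker genes matched through the study's homologue pairs. All 7 endosperm markers and all 8 embryo markers had counts in at least 1 library (*AGL62* was at 0 in 4 of 8), a low bar at this depth. Of the 2 listed leaf markers only *RBCS3B* was matched. It stayed between 0.605 and 1.2 CPM, the count relative to the TMM-scaled library total. A single gene does not show that leaf tissue was absent. Seed-storage genes among the embryo markers set replicates of the same cross apart, as *CRA1* did, a globulin gene with 2350 and 23.9 CPM in the Cr replicates. This spread between replicates enters every test below.

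Carubv10020903m.g was detected in all 8 libraries. Its counts were 669 and 667 in Cr × Cg, 298 and 781 in Cg × Cr, 1460 and 791 in Cg, and 1608 and 2106 in Cr. After scaling, these were 20.0 and 28.1 CPM in Cr × Cg, 9.89 and 29.5 in Cg × Cr, 48.6 and 29.3 in Cg, and 47.7 and 82.2 in Cr. Both hybrids therefore lay at the low end. Every Cr library was above every hybrid library, as in 12.4% of all tested genes, whereas Cg replicate 2 fell slightly below the higher Cg × Cr library. Both Cr × Cg libraries lay below all 4 parental libraries, as was the case in 16.5% of all tested genes. The means were 24.0 ± 5.77 CPM in Cr × Cg, 19.7 ± 13.9 in Cg × Cr, 38.9 ± 13.7 in Cg and 64.9 ± 24.4 in Cr (SD, n = 2 each).

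Carubv10001714m.g was also detected throughout, with a narrower range. Its counts were 450 and 433 in Cr × Cg, 227 and 317 in Cg × Cr, 457 and 222 in Cg, and 549 and 544 in Cr. These were 13.4 and 18.3 CPM in Cr × Cg, 7.54 and 12.0 in Cg × Cr, 15.2 and 8.21 in Cg, and 16.3 and 21.2 in Cr. Here the order of the crosses was another one. Both crosses with a *C. rubella* mother (means of 15.8 ± 3.41 CPM in Cr × Cg and 18.7 ± 3.50 in Cr) stood above both with a *C. grandiflora* mother (9.76 ± 3.15 in Cg × Cr and 11.7 ± 4.95 in Cg, SD, n = 2 each), although Cg replicate 1 overlapped with the crosses of *C. rubella* mothers.

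**Figure D1:**
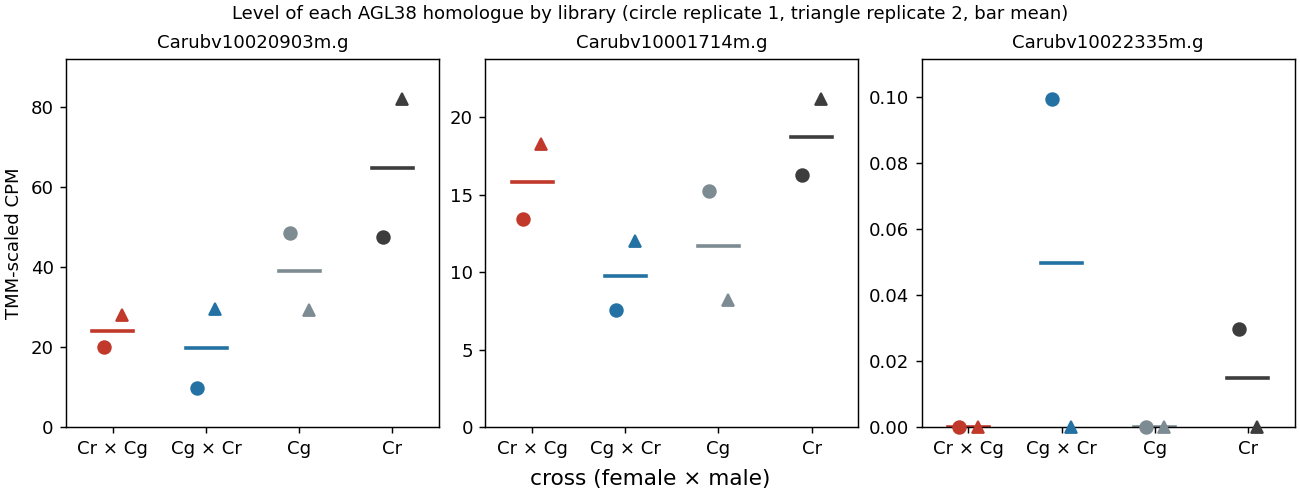
Level of the 3 AGL38 homologues in TMM-scaled CPM (vertical axis, a scale of its own for each gene) in the 2 libraries of each cross, with the mean as a bar. Carubv10020903m.g had means of 24.0 CPM in Cr × Cg and 19.7 in Cg × Cr, against 38.9 in Cg and 64.9 in Cr, Carubv10001714m.g ranged from 7.54 to 21.2 CPM, and Carubv10022335m.g did not pass 0.10 CPM.

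The third copy, Carubv10022335m.g, was close to absent from the counts. No count was found in either Cr × Cg library, 3 and 0 counts in Cg × Cr, none in either Cg library, and 1 and 0 in Cr. A count of 0 over the 2 libraries of a cross allows up to 3 counts, or 0.0524 CPM in Cr × Cg and 0.0526 in Cg, which covers counting error only. The 3 counts of Cg × Cr came from 1 library and do not exceed that limit. A difference between crosses was not detectable at this depth. With no filter on low counts its edgeR adjusted p lay between 0.393 and 1 in the 7 comparisons.

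The authors discarded reads that map to multiple locations and counted all crosses on the *C. rubella* genome. Reads from stretches that the copies share with each other or with other genes are thus missing from all 3, and reads of *C. grandiflora* alleles were aligned to the other species. How much either step took from each copy was not tested. Comparisons of 1 gene across crosses carry this limit too, because the crosses differ in their share of *C. grandiflora* alleles. Levels of the copies were not ranked against each other, because gene lengths were not used here.

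In the 6 comparisons of crosses and the test of interaction, none of the 14 tests of the 2 copies passed an adjusted p of 0.05 in edgeR's quasi-likelihood test, 4 of the 14 had an unadjusted p under 0.05, and DESeq2 called 3. Over all tested genes and the same 7 comparisons, 28.3% of the tests had an unadjusted p under 0.05 and DESeq2 called 18.5%, so both counts of the 2 copies were close to the background. All of the 4 pointed to lower values in hybrid seeds, and 3 of them concerned Carubv10020903m.g. Each of the 4 uses the same Cr libraries, so their directions are not independent. In bulk seed RNA, fewer cells of a type and less RNA per cell cannot be told apart.

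Against their mother species, Cr × Cg seeds had a log2 fold change of -1.43 for Carubv10020903m.g (SE 0.54, 95% interval -2.69 to -0.18), which is 2.70-fold lower. The edgeR adjusted p was 0.0985, where 22.7% of all tested genes were called and 10.3% were called lower. DESeq2 gave -1.43 with an adjusted p of 0.0201, where it called 27.3% of all tested genes, and edgeR passed the threshold without Cg × Cr replicate 1 (adjusted p = 0.0293) or 2 (0.0305), or with only Cr × Cg and Cr in the fit (0.0288). Leaving out either library of Cg × Cr, the cross in which the 2 replicates of this gene differed most, thus moved it past the threshold. It was called under 4 of the 14 alternatives, and without Cr replicate 2 the value was -0.99 (edgeR adjusted p = 0.368). For Carubv10001714m.g the log2 fold change was -0.24 (SE 0.37, -1.09 to 0.61, edgeR adjusted p = 0.684).

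Against their father species, Cr × Cg seeds had log2 fold changes of -0.70 for Carubv10020903m.g (SE 0.53, 95% interval -1.93 to 0.54, edgeR adjusted p = 0.432) and 0.43 for Carubv10001714m.g (SE 0.37, -0.42 to 1.29, edgeR adjusted p = 0.485). In this comparison 14.9% of all tested genes were called. The intervals leave room for a change of more than 2-fold in either copy, downward in the first and upward in the second.

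Cg × Cr seeds were set against their mother species in the same way. Carubv10020903m.g had a log2 fold change of -0.98 (SE 0.53, 95% interval -2.23 to 0.26, edgeR adjusted p = 0.347) and Carubv10001714m.g of -0.26 (SE 0.37, -1.12 to 0.59, edgeR adjusted p = 0.737). Only 2.55% of all tested genes were called here. The value of Carubv10001714m.g turned positive without Cg replicate 1 (0.25) or Cg × Cr replicate 1 (0.02), so it has no stable direction. That of Carubv10020903m.g stayed negative but moved to -1.98 without Cg × Cr replicate 2, -0.41 without Cg × Cr replicate 1 and -0.57 without Cg replicate 1, and was called under none of the 14 alternatives.

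Against their father species, Cg × Cr seeds had the lowest values of both copies. Carubv10020903m.g had a log2 fold change of -1.72 (SE 0.54, 95% interval -2.98 to -0.46), 3.29-fold lower, with an edgeR adjusted p of 0.116. DESeq2 called it (-1.74, adjusted p = 0.00737), where 12.0% of all tested genes were called, and so did edgeR without Cg × Cr replicate 2, where the value became -2.72 (adjusted p = 0.0402). The other 12 of the 14 alternatives did not call it, and the value was -1.15 without Cg × Cr replicate 1 (edgeR adjusted p = 0.267) and -1.30 without Cr replicate 2 (0.434). Carubv10001714m.g had a log2 fold change of -0.94 (SE 0.37, -1.80 to -0.08, edgeR adjusted p = 0.189), 1.92-fold lower, and was called under no alternative. Of all tested genes, 6.47% were called and 1.91% were called lower.

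The 2 hybrid directions did not differ detectably in either copy. The log2 fold change of Cr × Cg over Cg × Cr was 0.29 for Carubv10020903m.g (SE 0.53, 95% interval -0.95 to 1.52, edgeR adjusted p = 0.728) and 0.70 for Carubv10001714m.g (SE 0.37, -0.16 to 1.55, edgeR adjusted p = 0.208). This was the comparison with the most calls in the table, 24.6% of all tested genes. For Carubv10020903m.g the sign turned without Cg × Cr replicate 1 (-0.28). The parental species gave log2 fold changes of Cg over Cr of -0.74 (SE 0.53, -1.97 to 0.50, edgeR adjusted p = 0.399) and -0.68 (SE 0.37, -1.53 to 0.18, edgeR adjusted p = 0.267) for the same genes, where 13.0% of all tested genes were called. The 2 estimates were close, but their intervals are wide and their equality was not tested.

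**Figure D2:**
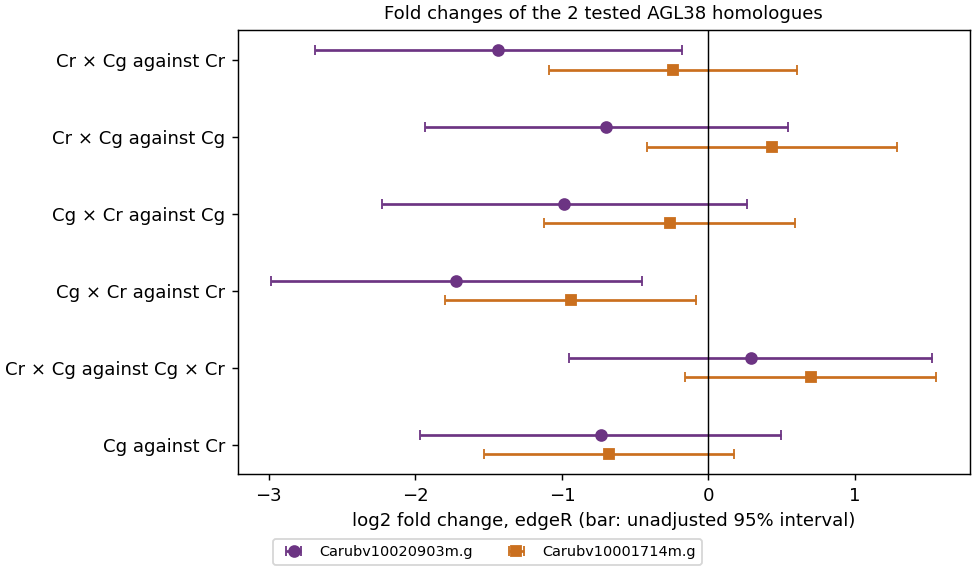
Log2 fold changes (horizontal axis) of Carubv10020903m.g and Carubv10001714m.g in the 6 comparisons of crosses, the cross named first over the second, with unadjusted 95% intervals from edgeR. The intervals of Carubv10020903m.g leave out 0 in both comparisons of a hybrid with Cr (-1.43 and -1.72), and that of Carubv10001714m.g in Cg × Cr against Cr (-0.94), and none passed adjustment over all genes.

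From the lowest to the highest mean, Carubv10020903m.g ran Cg × Cr, Cr × Cg, Cg, Cr, and Carubv10001714m.g ran Cg × Cr, Cg, Cr × Cg, Cr. No 2 neighbours in either order differed beyond their spread in edgeR's test. The end points, Cg × Cr and Cr, were the same in both copies, and the position of Cr × Cg was not. By the means, Cr × Cg lay with the other hybrid for Carubv10020903m.g and with its *C. rubella* mother for Carubv10001714m.g. These placements depended on single libraries. Without Cg × Cr replicate 2, the log2 fold change of Carubv10020903m.g in Cr × Cg was 1.29 against Cg × Cr and -0.69 against Cg. Without Cg replicate 2, that of Carubv10001714m.g was 0.05 against Cg and -0.25 against Cr.

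The position of the hybrids was tested as an interaction, that is, whether the effect of a *C. grandiflora* in place of a *C. rubella* father differed between the 2 mothers. For Carubv10020903m.g the log2 interaction was -2.42 (SE 0.75, 95% interval -4.18 to -0.65, edgeR adjusted p = 0.115), for which 5.85% of all tested genes were called. It was called by DESeq2 (-2.43, adjusted p = 0.00841), as were 12.2% of all genes with an adjusted p, and by edgeR without Cg × Cr replicate 2 (-3.42, adjusted p = 0.033), which makes 2 of 13 alternatives. Without Cg × Cr replicate 1 it was -1.85 (edgeR adjusted p = 0.143). The corresponding value of Carubv10001714m.g was -0.51 (SE 0.52, -1.71 to 0.70, edgeR adjusted p = 0.635).

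Averaged over both fathers, the log2 fold change of *C. grandiflora* over *C. rubella* mothers was -0.51 for Carubv10020903m.g (SE 0.37, 95% interval -1.38 to 0.36, edgeR adjusted p = 0.422) and -0.69 for Carubv10001714m.g (SE 0.26, -1.29 to -0.08, edgeR adjusted p = 0.125), where 14.6% of all tested genes were called. The value of Carubv10001714m.g was negative in all 13 alternatives but was called in none. Averaged over both mothers, *C. grandiflora* over *C. rubella* fathers gave -0.22 for Carubv10020903m.g (SE 0.37, -1.10 to 0.65, edgeR adjusted p = 0.701) and 0.01 for Carubv10001714m.g (SE 0.26, -0.59 to 0.61, edgeR adjusted p = 0.984), and 23.7% of all tested genes were called. These were the smallest values of both copies among the comparisons run. These averages over mothers and fathers were chosen after the values had been seen.

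The 2 detected copies were next compared within each library, where no scaling is needed. The ratio of counts of Carubv10020903m.g over Carubv10001714m.g was 1.49 and 1.54 in Cr × Cg, 1.31 and 2.46 in Cg × Cr, 3.19 and 3.56 in Cg, and 2.93 and 3.87 in Cr. All 4 hybrid libraries lay below all 4 parental libraries. This was the case in 0.212% of all tested genes when each was set over Carubv10001714m.g, a description and no test of this pair. All these ratios share that denominator, so its own profile across the crosses enters the share. Of the levels of all tested genes, without a denominator, 2.14% were separated in this way. On the log2 scale (0.5 added to each count), the means were 0.60 ± 0.04 in Cr × Cg, 0.85 ± 0.64 in Cg × Cr, 1.75 ± 0.11 in Cg and 1.75 ± 0.28 in Cr (SD, n = 2 each). The means of the parental species were thus nearly equal, although their difference was not tested on its own and the Cr replicates lay on both sides of the Cg ones. The mean of the hybrids was 2.04-fold below that of the parents, a split that was not tested on its own.

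As a share of the counts of both copies, Carubv10020903m.g took 59.8% (Wilson 95% interval 56.9 to 62.6) and 60.6% (57.7 to 63.5) in Cr × Cg. In Cg × Cr it took 56.8% (52.5 to 60.9) and 71.1% (68.4 to 73.7). In Cg it took 76.2% (74.2 to 78.0) and 78.1% (75.4 to 80.5), and in Cr 74.5% (72.7 to 76.3) and 79.5% (77.9 to 81.0). The intervals of the 2 replicates did not overlap in Cg × Cr or in Cr, and overlapped in Cr × Cg and Cg. Over the 4 crosses, the difference in the log2 ratio did not pass the threshold (F = 5.75, exact permutation test over 2520 assignments of the 8 libraries, p = 0.0857, with 0.0095 the smallest p that the design allows). Only 1 pair of copies could be tested. The p lay between 0.0571 and 0.2 with 1 library left out.

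**Figure D3:**
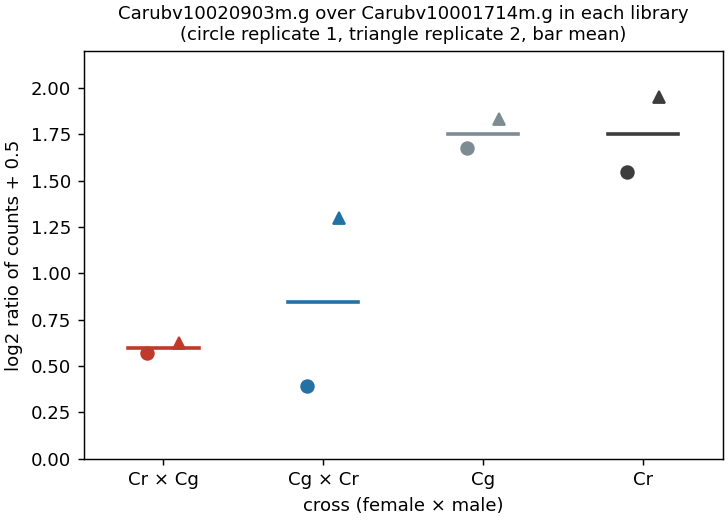
Log2 ratio of the counts of Carubv10020903m.g over those of Carubv10001714m.g (0.5 added to each, vertical axis) in the 2 libraries of each cross, with the mean as a bar. The hybrid libraries did not exceed 1.30 and the parental libraries did not fall below 1.55, and the exact permutation test over the 4 crosses gave p = 0.0857.

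The replicates of a cross varied together in both copies. The same replicate had the higher CPM of Carubv10020903m.g and of Carubv10001714m.g in all 4 crosses, namely replicate 2 in Cr × Cg, Cg × Cr and Cr and replicate 1 in Cg, and 10.6% of all tested genes had the same pattern. The replicates of Carubv10020903m.g differed 1.41-fold in Cr × Cg, 2.99-fold in Cg × Cr, 1.66-fold in Cg and 1.72-fold in Cr. The gap in Cg × Cr was as large or larger in 7.48% of all tested genes, and those of the other crosses in 19.4 to 35.3%. The replicates of Carubv10001714m.g differed by 1.30 to 1.85-fold.

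The same pattern of higher replicates in all 4 crosses was present in the embryo markers *LEC1*, *LEC2* and *WOX8*, so it was not particular to endosperm genes. Of the 7 endosperm markers, 4 followed it. These were *FIS2*, a Polycomb group gene of the seed, the imprinted gene *FWA*, *ZOU*, a transcription factor needed for endosperm breakdown, and *ALE1*, a protease gene expressed in the endosperm and needed for the embryo's cuticle. *FIS2* had 1.34 and 3.20 CPM in Cr × Cg, 1.20 and 3.67 in Cg × Cr, 7.82 and 7.18 in Cg, and 6.87 and 10.6 in Cr, so that all hybrid libraries lay below all parental ones, as in 2.14% of all tested genes. Its log2 fold changes against Cr were -1.95 in Cr × Cg (SE 0.61, edgeR adjusted p = 0.0534) and -1.84 in Cg × Cr (SE 0.61, edgeR adjusted p = 0.123). *ZOU* had 6.36 and 6.79 CPM in Cr × Cg, 15.1 and 40.2 in Cg × Cr, 38.3 and 34.0 in Cg, and 47.3 and 61.7 in Cr. In Cr × Cg it fell relative to both parents. The log2 fold change was -3.05 (SE 0.43, edgeR adjusted p = 0.00294) relative to Cr, and relative to Cg it was -2.46 (SE 0.42) at an edgeR adjusted p of 0.0093.

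*ALE1* also fell in Cr × Cg against Cr, with a log2 fold change of -3.31 (SE 0.63, edgeR adjusted p = 0.0114), and against Cg it was at -2.09 (SE 0.60, edgeR adjusted p = 0.062). *FWA* and the remaining markers went the other way in Cr × Cg. *FWA*, *MEA* (the Polycomb partner of *FIS2*), *MINI3* (a regulator of seed size) and *AGL62* (a MADS-box gene that holds back cellularization) all rose in Cr × Cg against both parents, with edgeR adjusted p between 0.00164 and 0.04. The summed level of the 7 markers was 90.1 and 138 CPM in Cr × Cg, 59.6 and 176 in Cg × Cr, 128 and 93.5 in Cg, and 153 and 227 in Cr. Within each cross the library with the higher sum was also the one with more Carubv10020903m.g. The sum largely repeats markers described above. *ALE1* and *ZOU* made up most of it in Cg × Cr, Cg and Cr, and *FWA* and *MINI3* in Cr × Cg. Of the seed coat list only *TT12*, a transporter gene of pigment precursors, was matched, at 149 and 200 CPM in Cr × Cg, 70.0 and 81.0 in Cg × Cr, 76.9 and 127 in Cg, and 26.6 and 22.8 in Cr. The summed embryo markers were at 739 and 89.5 CPM in Cr × Cg, 2710 and 1220 in Cg × Cr, 529 and 307 in Cg, and 8390 and 697 in Cr. This sum was higher in replicate 1 of all 4 crosses, unlike the levels of the 2 copies. Directions within the list differed. *CRA1*, *CRC*, *CRB* and *OLEO1*, most of the sum in Cr replicate 1 (2350, 3880, 867 and 1010 CPM), were higher in replicate 1 of every cross. *LEC1*, *LEC2* and *WOX8* instead had the replicate pattern of the 2 copies, and *FUS3* had neither pattern. *LEC2* was also lower in all hybrid libraries (at most 39.6 CPM) than in all parental ones (at least 53.1), as in 2.14% of all tested genes. None of the other embryo markers had this separation. The part of these tissues in the values of the AGL38 homologues was not tested.

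Genes with the most similar profile were sought over the 8 libraries by Pearson's r of log2 CPM, as a description. The 2 copies correlated with each other at r = 0.762. For Carubv10020903m.g the closest genes were Carubv10005627m.g (r = 0.993), Carubv10015216m.g (r = 0.964) and Carubv10002640m.g (r = 0.964). For Carubv10001714m.g they were Carubv10023902m.g (r = 0.983), Carubv10003769m.g (r = 0.982) and Carubv10001527m.g (r = 0.981). Of these only Carubv10003769m.g has an Arabidopsis partner in the study's lists (AT5G20260). The closest gene to Carubv10020903m.g varied over a smaller range, with 22.9 and 24.7 CPM in Cr × Cg, 16.4 and 25.8 in Cg × Cr, 29.6 and 25.2 in Cg, and 31.9 and 37.3 in Cr. Over the 8 libraries, 48 and 47 genes reached r above 0.9 with the first and the second copy, that is, 0.226% and 0.222% of all tested genes.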

How the data were processed

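Per the study's methods, alignment was to the *C. rubella* genome v1.0 with Stampy v1.0.23, Samtools served to drop multiply mapped reads, and htseq-count with default settings gave a value per gene. The authors deposited raw read counts. Trimmomatic is named in the submitters' processing notes. From the deposited counts, genes were filtered (filterByExpr, count minimum of 10), scaled by TMM and fitted with edgeR 4.0.16 (limma 3.58.1, R 4.3.3) by a robust quasi-likelihood model of all 8 libraries, where the residual degrees of freedom were 4 and the prior ones had a median of 4.23. Adjustment (Benjamini-Hochberg) was over 21214 genes. The common dispersion was 0.0918. The SE is the absolute log2 fold change divided by the square root of F. The copy ratio was tested by exact permutation, with 0.5 added to counts, in Python 3.11.15 (NumPy 2.4.6, SciPy 1.17.1). The edgeR step and the permutation were tested on simulated data. RankProd, which the authors used, was not run.

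In each cross the 2 replicates were farther apart than sampling noise (chi-square between 74.24 and 81.47 per degree of freedom) and counted separately. The members and lists were chosen with earlier results of these data known. Besides the 3 members, the genes named are the marker list and, for each tested copy, the 3 genes with the highest r. Protein sequences and chromosome positions, which that rule also allowed for, were not used here, and a further gene list is not reported here. Alternatives were DESeq2 1.42.0, its size factors in edgeR, other filters, a replicate block, a fit restricted to the crosses compared, a pseudocount of 1 and leaving out each library.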

Additional observations from a re-analysis of the deposited data

How the results depend on the processing

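Carubv10020903m.g kept its direction against every parent under all 14 alternatives, and Carubv10001714m.g in 3 of these 4 comparisons. For Carubv10020903m.g, DESeq2 called Cr × Cg against Cr (-1.43), Cg × Cr against Cr (-1.74) and the interaction (-2.43), and a fit of only the crosses compared called Cr × Cg against Cr (-1.43). With 1 library left out its values lay between -1.78 and -0.99 for Cr × Cg against Cr, -2.72 and -1.15 for Cg × Cr against Cr, -3.42 and -1.85 for the interaction, -0.28 and 1.29 for Cr × Cg against Cg × Cr, and -0.51 and 0.27 for *C. grandiflora* against *C. rubella* fathers. Those of Carubv10001714m.g lay between -0.67 and 0.25 for Cg × Cr against Cg, -0.92 and 0.002 for the interaction, and -0.25 and 0.21 for fathers. A cross left with 1 library was assumed to vary like the others.

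The number of genes called over the whole table moved by more than 1.5 times with DESeq2 in 4 comparisons, to 1937 in place of 541 for Cg × Cr against Cg, 2536 in place of 1373 for Cg × Cr against Cr, 4211 in place of 2766 for Cg against Cr, and 2536 in place of 1240 for the interaction. With 1 library left out, the lowest counts were 2055 genes in place of 4822 for Cr × Cg against Cr, 1100 in place of 3155 against Cg, 162 for Cg × Cr against Cg, 241 against Cr, 2276 in place of 5213 between the hybrids, 966 for Cg against Cr, 322 for the interaction, 1913 in place of 3093 for mothers and 3076 in place of 5037 for fathers. The filters and the size factors changed no call of either copy.

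The labels do not say what a replicate number marks. The differences between replicate 1 and 2 correlated across genes with r between 0.221 and 0.333 among Cr × Cg, Cg × Cr and Cr, and between -0.176 and 0.06 for Cg with these. Since not every pair of crosses exceeded 0.1, the numbers were not taken to pair the samples, although those of 3 crosses varied together. With the numbers as a replicate block, Carubv10020903m.g had log2 fold changes of -1.41 for Cr × Cg against Cr (edgeR adjusted p = 0.083) and -1.78 for Cg × Cr against Cr (0.0939). Neither copy was called in any comparison. The copy ratio had F = 13.3 and an exact permutation p of 0.167 in this setting. Libraries were reassigned only within a replicate number there. Fewer assignments were thus possible, so this p cannot be set against that of the main permutation test.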
